A study of Mus musculus with 12 samples.

Results

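The comparison set out here is between mouse embryonic fibroblasts (MEF) with a deleted Dicer gene and control fibroblasts, as seen in their mature miRNAs. It rests on 2 of the 12 small RNA libraries of the study, 1 per genotype, and on the 334 miRNAs listed in at least 1 of them. The libraries were chosen by cell type and genotype as given in the sample titles, not by any measured value. The study covers 4 cell types (DN3 thymocytes, Treg cells, CD4 cells and MEF) in 3 genotypes (control, Drosha and Dicer). Per the labels, the mice were of the C57BL/6 background and the fibroblasts came from E14.5 embryos. Every fibroblast group, the control included, carried Rosa26-CreER, a Cre recombinase fused to an oestrogen receptor and expressed from a widely active locus, so the control shares the recombinase. The Dicer group is labelled Dicer Rosa26-CreER and the Drosha group Drosha Rosa26-CreER. The labels give every sample an age of 6 to 7 weeks, which cannot describe embryonic cells. The agent that activates the recombinase, its dose and the time after it are not given, nor is the number of embryos or cultures behind a library. These lists do not measure how far the Dicer gene was deleted.

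Drosha cuts a primary transcript in the nucleus and releases a hairpin, the pre-miRNA. Dicer then cuts the loop off the hairpin in the cytoplasm and leaves a duplex, of which 1 strand (the guide) is usually kept by an Argonaute protein and the other (the passenger, often marked with a star) is mostly degraded. Loss of Dicer stops the supply of new duplexes, while mature miRNAs already bound by Argonaute are known to be long-lived in many cells. Fibroblasts are known for miR-22, miR-125b, miR-21, miR-143 and miR-214, and embryonic fibroblasts also for the large imprinted miRNA cluster between Dlk1 and Dio3.

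Each deposited value is the authors' read count for 1 mature miRNA scaled to about 1000000 per library, called the per-million value below. The control library listed 314 miRNAs and the Dicer library 303, and 283 were in both. The lowest value in each was 11. Spacing of the low values implied about 275000 reads for control and 270000 for Dicer, so 11 stands for 3 reads in each. A miRNA that is not listed was taken as below 11. Because each value is a share of its library, a loss common to every miRNA leaves no trace in it, and fewer cells or less miRNA per cell cannot be told apart. The fibroblast label was checked against marker miRNAs. All 10 mesenchymal markers were listed in both libraries and made up 58.4% of the control total and 61.5% of the Dicer total. Most of that was miR-22, and the other 9 came to 2.64% and 2.8%. Of these markers, miR-22 and miR-21 were not confined to fibroblasts. miR-22 had 152800 in CD4 control cells, beside 558538 in control MEF. miR-21 had 171793 in Treg and 51578 in DN3 control cells, beside 7927 in control MEF. Unlike these, miR-143 had 11840 in control MEF, 10 in Treg and 30 in CD4 control cells. Of 7 epithelial markers 1 was listed (miR-141, at 11 in the Dicer library), and of 15 pluripotency markers 1 (miR-292-3p, at 11 in the control library). Markers of other lineages were mostly listed in at least 1 library, at low values. These were 6 of 7 blood or lymphoid markers, 4 of 4 neural, 3 of 4 muscle and 2 of 2 endothelial. Of 3 erythroid markers 1 was listed. In that order the control sums were 524, 138, 145, 26 and 80.

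The mature sequences on which the results turn are printed 5′ to 3′ from RefSeq (assembly GRCm38.p6), where 244 of the 334 names were matched. Capitals mark the seed, bases 2 to 8, which does most of the target pairing. The first set is the let-7 family, the only seed family of 3 or more compared miRNAs whose members all lay above the median miRNA. Its 9 members share 1 seed and differ only outside it.
let-7a: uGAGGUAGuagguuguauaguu
let-7b: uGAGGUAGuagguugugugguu
let-7c: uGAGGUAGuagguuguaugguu
let-7d: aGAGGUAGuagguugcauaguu
let-7e: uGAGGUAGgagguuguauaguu
let-7f: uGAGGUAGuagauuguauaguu
let-7g: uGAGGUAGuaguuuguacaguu
let-7i: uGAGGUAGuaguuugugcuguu
miR-98: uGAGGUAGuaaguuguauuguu

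The second set holds 2 further seed families, miR-30, with lower values, and miR-15/16, with mostly higher values. They are shown so that the printed members of each can be read side by side. Not printed are miR-322, which shares the miR-15/16 seed and had a ratio of -0.36, and miR-30b and miR-30d, which had no matched sequence.
miR-30a: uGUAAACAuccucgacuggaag
miR-30c: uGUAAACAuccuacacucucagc
miR-30e: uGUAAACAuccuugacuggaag
miR-15a: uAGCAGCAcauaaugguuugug
miR-15b: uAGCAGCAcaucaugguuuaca
miR-16: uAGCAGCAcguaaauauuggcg

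The third set holds single miRNAs: the 2 most abundant, the blood miRNA with the best-measured difference, 2 imprinted miRNAs and the miRNA whose strand balance differed most among arm pairs with each arm at 50 or more.
miR-22: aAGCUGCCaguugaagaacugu
miR-125b-5p: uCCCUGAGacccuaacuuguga
miR-142-3p: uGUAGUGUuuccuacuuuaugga
miR-431: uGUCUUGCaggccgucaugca
miR-541: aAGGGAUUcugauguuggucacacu
miR-199b: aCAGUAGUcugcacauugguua

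In GENCODE M21 on the same assembly, miR-22 lies at chr11:75463772-75463793 (plus strand) in an exon of its host RNA Mir22hg, and miR-125b-5p comes from 2 loci, of which Mir125b-2 is at chr16:77646279-77646300 (plus strand) in an intron of Mir99ahg. miR-142-3p lies at chr11:87756903-87756925 (plus strand) in an intron of Mir142hg. miR-431 lies at chr12:109590459-109590479 (plus strand), opposite a coding exon of Rtl1, and miR-541 at chr12:109742422-109742446 (plus strand) in an intron of Mirg. miR-199b lies at chr2:32318524-32318545 (plus strand), opposite an intron of Dnm1. let-7b at chr15:85707325-85707346 (plus strand) lies in an exon of Lncppara, while let-7e at chr17:17830366-17830387 (plus strand) is in an intron of Spaca6.

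The Dicer-deficient library kept nearly the same miRNA profile as the control. Of 237 miRNAs listed in both with a summed value of at least 50, 10 (4.22%) differed from the median miRNA by 1 log2 unit or more, 6 above (2.53%) and 4 below (1.69%). The ratio is Dicer to control, log2 of (value + 0.5), minus the median over the 237. Before that step the median ratio was -0.19, so the median miRNA was 1.14-fold lower in the Dicer library, and all ratios below are relative to it. With the library total as the reference the count was 12, and the split turned to 1 above and 11 below. With the total without miR-22 it was 9, split 2 and 7. There is 1 library per genotype, so there is no replicate check and no test, and a ratio compares these 2 libraries.

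**Figure D1:**
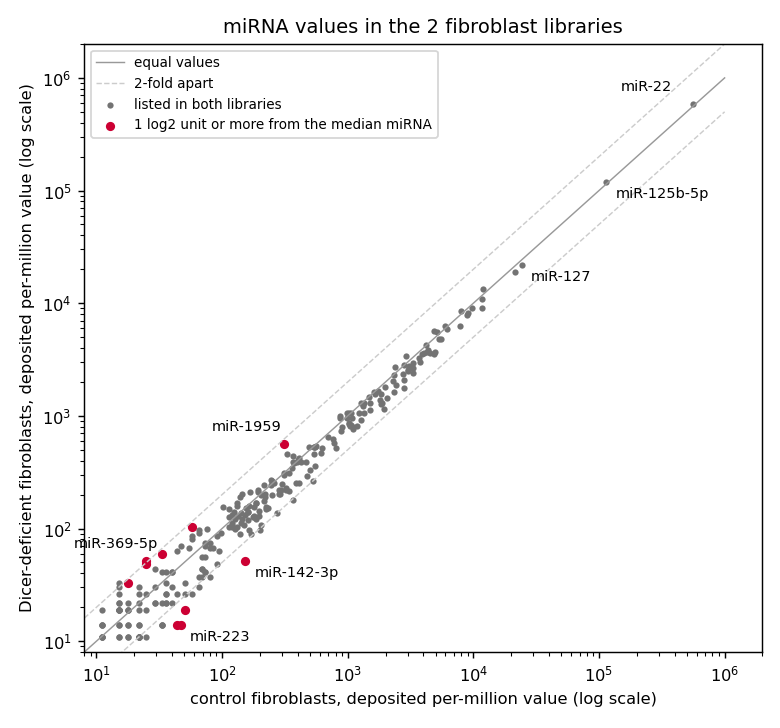
Per-million value of each miRNA in the control library (horizontal, log scale) against the Dicer-deficient library (vertical, log scale), for the 283 miRNAs listed in both; red points are the 10 whose ratio differs from the median by 1 log2 unit or more. Only miR-1959 and miR-142-3p of the red points have a value above 150 in either library.

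How far a ratio can be read depends on depth. For each miRNA an exact 95% counting interval of its ratio was computed from the implied reads (a conditional binomial interval). It covers counting error only and not the spread between cultures, and the median it is set against was taken as fixed. The interval lay above the median miRNA for 27 of 237 miRNAs (11.4%) and below it for 32 (13.5%). This balance holds for the median reference only: with the library total the interval lay above for 10 and below for 69, and with the total without miR-22 above for 12 and below for 43. Among the 74 miRNAs with a control value of at least 1000, no ratio reached 1 log2 unit. They ranged from -0.56 to 0.43 with an SD of 0.22, where counting alone would give 0.09. Of these 74, the interval was above for 17, below for 20 and included the median for 37. Among the 100 miRNAs under 200 in control, the SD was 0.57 against 0.51 from counting, and the interval included the median for 94. All but 1 of the 10 miRNAs past 1 log2 unit were in this lowest class. The abundant miRNAs thus held small differences beyond counting error, and the rare ones large differences mostly within it.

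**Figure D2:**
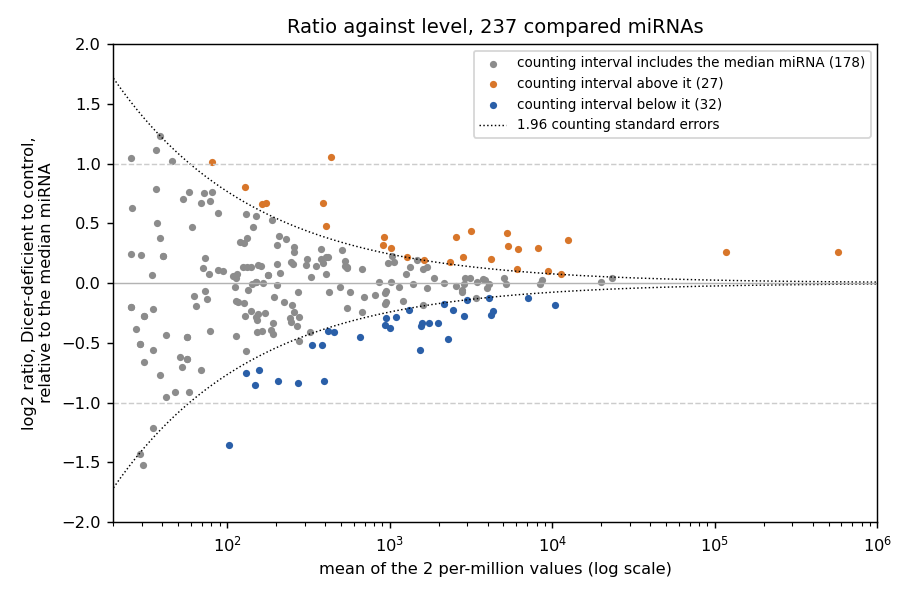
Log2 ratio of Dicer-deficient to control, relative to the median miRNA, against the mean of the 2 per-million values (log scale) for 237 miRNAs; dotted lines mark 1.96 counting standard errors and dashed lines 1 log2 unit. Orange points (27) have a counting interval above the median miRNA and blue points (32) below it.

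The most abundant miRNAs come first. miR-22, a regulator of growth signalling and chromatin genes, had 558538 in control and 587189 in Dicer, or 55.8% and 58.7% of all values. Its ratio was 0.26 (counting interval 0.25 to 0.27). miR-125b-5p, known for restraint of p53 and differentiation genes, had 114676 and 120097, a ratio of 0.26 (0.23 to 0.28). Both stood a little higher in the Dicer library against the median miRNA, and by 0.07 each on the library total. Of the 10 most abundant in control, 9 were also among the 10 most abundant in Dicer. The 10 most abundant in control held 78.1% of the control total and 80.6% of the Dicer total. All miRNAs other than miR-22 together had 442295 in control and 412706 in Dicer, 6.69% less.

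Other connective tissue miRNAs were in part higher. miR-143, of smooth muscle and stroma, had 11840 and 13311, a ratio of 0.36 (0.29 to 0.43). miR-214, from the Dnm3os RNA, had 2375 and 2726, a ratio of 0.39 (0.23 to 0.54). miR-21, abundant in many stromal and growing cells, had 7927 and 8492, a ratio of 0.29 (0.20 to 0.37). These 3 and miR-22 also had a positive ratio on the library total. By contrast miR-31 (9084 and 8111), miR-127 (24331 and 21937) and miR-99b (8938 and 7803) had ratios of 0.03, 0.04 and -0.01, with intervals that include the median miRNA. Over the 10 mesenchymal markers the median was 0.21, against 0 over all 237, with 6 above and 4 below (5 and 5 on the library total), and none past 1 log2 unit. The difference of greatest size in the list was a lower one, miR-199b* with 531 and 263, a ratio of -0.82 (-1.25 to -0.41).

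The let-7 family, which represses Hmga2, Lin28 and Ras genes and is known as a brake on growth, had its 9 members above the median miRNA. The share above it among all 237 was 49.8%. let-7a had 2891 in control and 3419 in Dicer, a ratio of 0.43 (0.29 to 0.57). let-7b had 4873 and 5722, a ratio of 0.42 (0.31 to 0.53), and let-7c had 5098 and 5541, a ratio of 0.31 (0.20 to 0.42). The most abundant member, let-7i, went from 21276 to 18789 and sat at the median miRNA, with a ratio of 0.01 (-0.04 to 0.06). let-7g (3069 and 2763) was close to it at 0.04 (-0.11 to 0.18). The others were let-7d (1476 and 1478) at 0.19, let-7e (2345 and 2322) at 0.18, let-7f (1265 and 1292) at 0.22 and miR-98 (167 and 211) at 0.53, with an interval of -0.06 to 1.12 for the last.

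The family was therefore not uniform: 5 members had an interval above the median miRNA (3 above and 2 below on the library total) while let-7d, let-7g, let-7i and miR-98 had one that includes it. Its sum was 42460 in control and 41537 in Dicer, or 4.24% and 4.15% of the totals. On the library total the direction held for 6 of the 9 and turned for let-7e, let-7g and let-7i, and with miR-22 left out of the total it held for 7. The members are nearly identical in sequence, so the authors' mapping could have divided reads among them. Among 9 members, none was past 1 log2 unit.

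The let-7 family, with a median of 0.22 in the fibroblasts, was also read in the Dicer and control libraries of the T lineage cells. In DN3 thymocytes 0 of 9 members were above that comparison's own median miRNA (49.7% of its 183 miRNAs were), with a median of -0.49. In Treg cells 7 of 9 were above (49.4% of its 166 miRNAs were), with a median of 0.21 and a range from -0.40 to 0.47. let-7i had 10893 and 6497 in DN3 cells, a ratio of -0.77, and 4845 and 5148 in Treg cells, a ratio of 0.21. The DN3 and Treg libraries were deposited in another format and at unknown depth, and the difference between cell types was not tested.

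**Figure D3:**
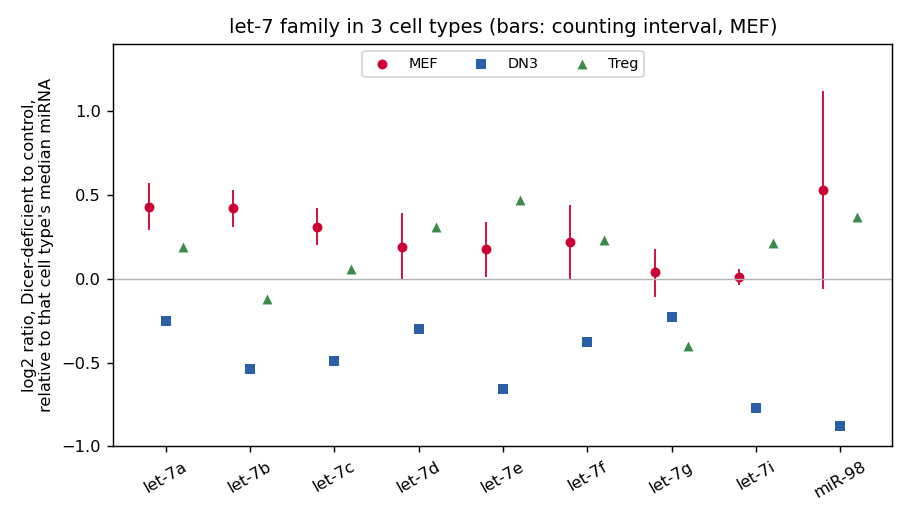
Log2 ratio of Dicer-deficient to control for the 9 let-7 family members in MEF (circles, with 95% counting intervals), DN3 (squares) and Treg (triangles), each relative to the median miRNA of its own cell type. MEF ratios run from 0.01 to 0.53, DN3 ratios from -0.88 to -0.23 and Treg ratios from -0.40 to 0.47.

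The miR-30 family, known for restraint of fibrosis and of epithelial to mesenchymal change, had all 5 listed members below the median miRNA, where 118 of all 237 were. They were also below 0 under the other references, as were 173 of all 237 on the library total and 146 with miR-22 left out of it. miR-30a had 1349 and 1067, a ratio of -0.15 (-0.38 to 0.08). miR-30d had 1029 and 859, a ratio of -0.07, and miR-30e had 800 and 514, a ratio of -0.45 (-0.76 to -0.13). The rare miR-30b (51 and 26) and miR-30c (51 and 19) had ratios of -0.77 and -1.21, and for miR-30c these are 14 and 5 reads. The summed family had 3280 in control and 2485 in Dicer, a ratio of -0.21 (-0.36 to -0.06). Only miR-30e had its own interval below the median miRNA.

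The miR-15/16 family, which represses Bcl2 and cyclins and holds back the cell cycle, was rare here. miR-15a had 145 and 203, a ratio of 0.67 (0.06 to 1.30). miR-15b had 65 and 92, a ratio of 0.69 (-0.24 to 1.65), and miR-16 had 193 and 222, a ratio of 0.39 (-0.16 to 0.96). miR-322, which shares the seed but comes from an X-linked cluster, went the other way, with 320 and 219 and a ratio of -0.36 (-0.86 to 0.13). The family median was 0.53 over 4 compared members, 3 of them above under each of the 3 references. The summed list also holds miR-497, with 15 in control and not listed in Dicer, where it added nothing. Its reads were too few to place the sum on 1 side of the median miRNA (0.19, -0.10 to 0.48).

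The miR-17~92 cluster and its paralogs, known as oncogenic miRNAs, had 8 compared members with a median of -0.03, 4 above and 4 below. The 2 abundant ones were lower: miR-93 had 4876 and 3548, a ratio of -0.27 (-0.39 to -0.15), and miR-19b had 2345 and 1633, a ratio of -0.33 (-0.51 to -0.16). The rest had intervals that include the median. miR-351 of the X-linked cluster had 1862 and 1297, a ratio of -0.33 (-0.53 to -0.13), while its neighbour miR-503 had 138 and 192, a ratio of 0.66 (0.04 to 1.31). miR-221, which targets cell cycle inhibitors, had 2433 and 1892, a ratio of -0.17.

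Other families lay near the median. The 4 miR-181 members had a median of -0.16, with miR-181a (7844 and 6303) at -0.13. Those of miR-99/100 and miR-125 had a median of -0.01 over 7 members. The p53 targets miR-34a, miR-34b-5p and miR-34c had 3073 and 2686, 164 and 159, and 360 and 348, with ratios of 0.00, 0.15 and 0.14. The miR-23/24/27 group had a median of -0.01 over 6 members. Its outlying member was miR-23a, with 44 and 14 (12 and 4 reads) and a ratio of -1.43 (-3.46 to 0.35). The most abundant member, miR-24, had 4371 and 3814 and a ratio of -0.01. miR-29b, which targets collagens and other matrix genes, had 1193 and 808, a ratio of -0.37 (-0.63 to -0.12).

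**Figure D4:**
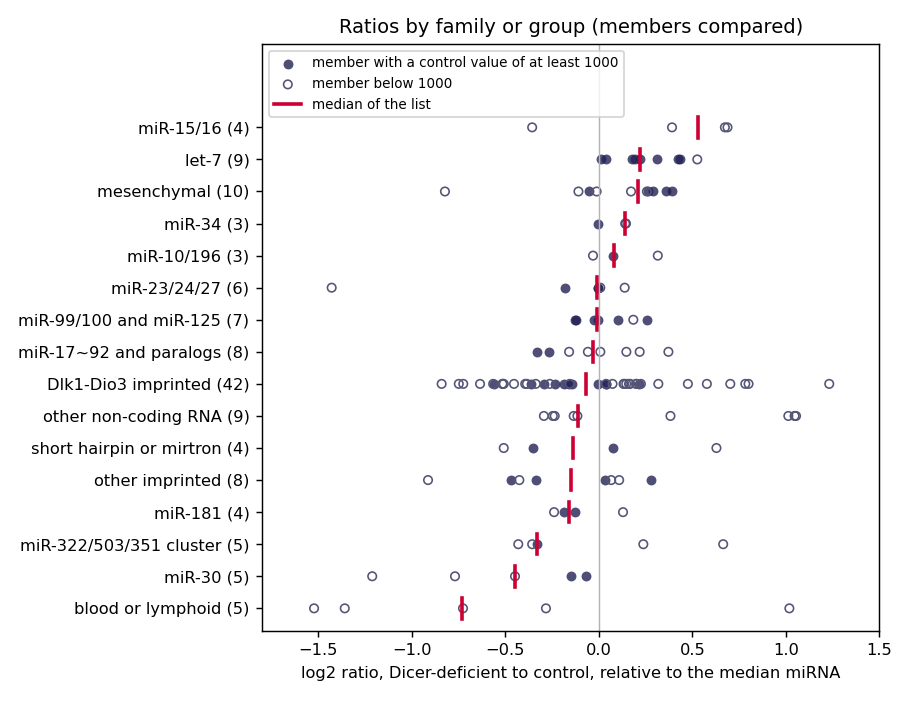
Log2 ratio of Dicer-deficient to control, relative to the median miRNA, for each compared member of the 16 lists with at least 3 compared members, sorted by list median (red bars); filled points have a control value of at least 1000. Medians run from -0.73 for blood or lymphoid miRNAs to 0.53 for miR-15/16.

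The imprinted miRNAs between Dlk1 and Dio3, expressed from the maternal chromosome and typical of embryonic and stem cells, were the list with the most compared members. They had 6.77% of the control total and 5.70% of the Dicer total. Of 72 listed by name, 57 were found in at least 1 library and 42 were compared. The median was -0.07, with 20 above and 22 below, and 1 (miR-369-5p, 25 and 52) past 1 log2 unit. For 11 of the 42 (26.2%) the counting interval was below the median miRNA, and for 3 (7.14%) it was above, beside 13.5% and 11.4% of all 237. None of the 3 stayed above under the other references: the intervals were above for 0 and below for 15 on the library total, and for 0 and 11 with miR-22 left out of the total. The split of ratios on the library total was 11 above and 31 below.

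Lower members were found among both abundant and rare ones. miR-431, which lies antisense to Rtl1, had 1938 in control and 1152 in Dicer, a ratio of -0.56 (-0.77 to -0.36), and its passenger miR-431* had 204 and 108, a ratio of -0.72 (-1.43 to -0.06). miR-770-5p, from the Meg3 host transcript, had 364 and 178, a ratio of -0.84 (-1.37 to -0.33). miR-541 had 11800 and 9089, a ratio of -0.19 (-0.26 to -0.11), miR-382 had 4967 and 3700, a ratio of -0.24, and miR-300 had 1851 and 1263, a ratio of -0.36. The locus did not move as one, since miR-127, which also lies opposite Rtl1, was at 0.04 and miR-337-5p (2793 and 2844) at 0.22 (0.07 to 0.36). The higher members included miR-376a (102 and 156) at 0.80 (0.08 to 1.55) and miR-154 (364 and 444) at 0.48 (0.08 to 0.88). The 11 members with a control value of at least 1000 ranged from -0.56 to 0.22.

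Imprinted miRNAs of other loci were mixed. miR-298, from the Nespas and Gnas locus, had 2789 and 1767, a ratio of -0.47 (-0.64 to -0.30), while its neighbour miR-296-3p had 3927 and 3526, a ratio of 0.03. miR-483, from an intron of Igf2, had 5949 and 6337, a ratio of 0.28 (0.18 to 0.38). miR-675-3p, made from the H19 RNA, had 65 and 30 (18 and 8 reads), a ratio of -0.91 (-2.36 to 0.32). The 7 listed members of the large cluster in an intron of Sfmbt2 had a summed value of 139 in control and 44 in Dicer (38 and 12 reads), with only miR-466h reaching the minimum. Of these, 7 were listed in control and 3 in Dicer. The 4 not listed entered the Dicer sum as 0, although each could be anywhere below 11, so no fold is given.

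The miRNAs of blood cells made up a small part of both libraries, with a sum of 524 in control and 299 in Dicer (144 and 81 reads). Over the 5 compared the median was -0.73, with 2 of them 1 log2 unit or more below and 1 above, beside 1.69% and 2.53% of all 237. miR-142-3p, made by nearly all blood cells, had 153 and 52 (42 and 14 reads), a ratio of -1.36 (-2.36 to -0.47). It was the only one of the 4 lowest with an interval below the median miRNA. miR-223, the myeloid miRNA, had 47 and 14 (13 and 4 reads), a ratio of -1.52 (-3.56 to 0.21). miR-142-5p had 25 in control and was not listed in Dicer, and miR-150, of mature lymphocytes, was listed in neither. miR-155, of activated immune cells, had 33 and 59 (9 and 16 reads), a ratio of 1.02 (-0.22 to 2.41). The other 2 compared were miR-146a and miR-146b. miR-146a, with the highest control value of the list, had 175 and 126, a ratio of -0.28 (-0.96 to 0.38). miR-146b had 91 and 48, a ratio of -0.73 (-1.82 to 0.29), which is the list median. The summed ratio was -0.62 (-1.03 to -0.21), where miR-142-5p added nothing to the Dicer sum although it could be anywhere below 11. Beside it are the values of the other marker lists. The erythroid miR-486 had 80 and 67, muscle miRNAs summed to 145 and 195, neural ones to 138 and 165, and endothelial ones to 26 and 19. In the muscle, neural and endothelial sums too, a member listed in 1 library only added nothing to the other. Whether the cultures held different numbers of blood cells was not tested.

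Entries that need neither a standard hairpin nor Drosha were set apart. The short hairpins and mirtrons skip Drosha but still need Dicer. miR-320, a short hairpin, had 11782 in control and 10900 in Dicer, a ratio of 0.08 (0.01 to 0.15), and on the library total it was -0.11. miR-484 had 1105 and 759, a ratio of -0.35 (-0.62 to -0.09). The other 2 compared, miR-668 (36 and 22) and miR-702 (22 and 30), rested on 10 reads or fewer, and the list median was -0.14. miR-451, which Ago2 matures without Dicer, was not listed in any of the fibroblast libraries used here.

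A second group holds entries that were later seen to match other non-coding RNAs, such as fragments of transfer or ribosomal RNA. It had 9 compared members with a median of -0.11, 4 above and 5 below, a sum of 2834 and 2874, and 3 members 1 log2 unit or more above the median miRNA, beside 2.53% of all 237. miR-1959 had 309 and 563 (85 and 152 reads), a ratio of 1.05 (0.66 to 1.46), which made it the best-measured of the 10 past 1 log2 unit. miR-709 had 58 and 103, a ratio of 1.01 (0.09 to 2.01), and miR-690 had 18 and 33, a ratio of 1.05 (-0.67 to 2.99). miR-1937a had 865 and 989, a ratio of 0.38 (0.12 to 0.64), while miR-1937b had 215 and 174, a ratio of -0.11, and miR-805 had 782 and 578, a ratio of -0.25. On the library total none of the 3 reached 1 log2 unit, though each stayed above 0.

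The Drosha-deficient fibroblasts share the same control library, so only the values are set side by side. There 81 of 226 miRNAs (35.8%) differed from the median miRNA by 1 log2 unit or more, with an SD of 1.62 against 0.43 here. miR-320 had 193941 there, beside 11782 and 10900. miR-1959 had 2300, miR-1937a 8630 and miR-484 2700. The same 3 entries had 563, 989 and 759 in the Dicer library and 309, 865 and 1105 in control. The Drosha library held about 77300 implied reads and is less precise.

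The ratio of the 2 strands within a hairpin does not depend on how libraries are scaled. Arms were paired by name, so a pair is not always 1 hairpin where a strand comes from more than 1 locus. In such pairs a difference between loci cannot be told apart from one between strands. In 33 pairs with each arm at 50 or more in both libraries, log2 of the minor over the major arm differed between Dicer and control by a median of 0.04 (SD 0.42), 14 lower and 17 higher. The same arm was the major one in 31 of the 33. In 1 pair, miR-129, the other arm was the higher one in Dicer (142 and 131 in control, 111 and 159 in Dicer), a difference within its counting error, and the arms of 1 pair, miR-199b, were tied there. In 4 pairs the difference exceeded 1.96 counting standard errors. In 3 of those the passenger share was smaller in Dicer: miR-214* had 342 and 214 beside a guide of 2375 and 2726 (difference -0.88), miR-483* had 2062 and 1430 beside 5949 and 6337 (-0.62), and miR-125b-3p had 3760 and 3014 beside 114676 and 120097 (-0.39). In the other, miR-199b* had 531 and 263 while miR-199b had 251 and 263, so the pair came to equal values in Dicer (difference 1.08). Of these 4, the miR-125b pair is not 1 hairpin: miR-125b-5p comes from 2 loci, and miR-125b* (36 and 26) is a separate passenger entry. The miR-199b sequence printed above is the same in RefSeq as that of miR-199a-3p (247 and 244), and the 2 cannot be told apart by reads.

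**Figure D5:**
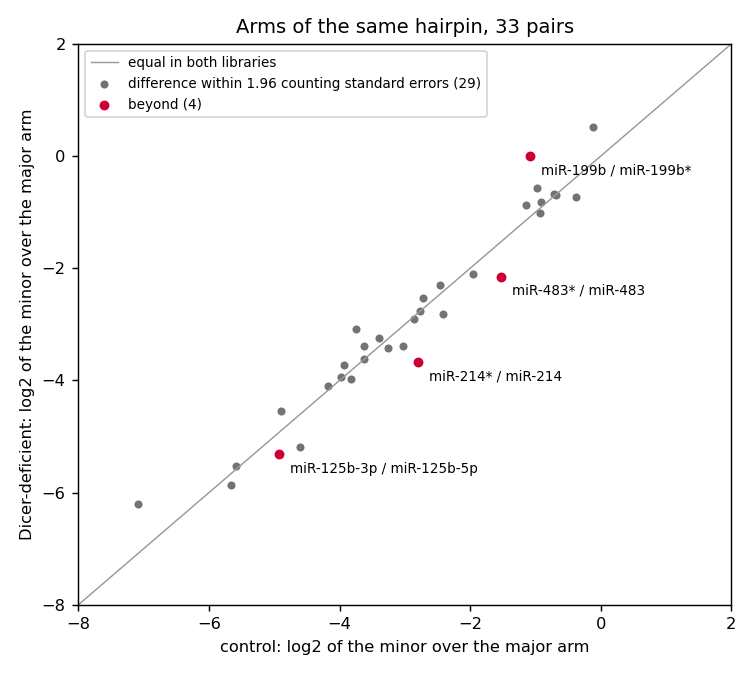
Log2 of the minor over the major arm in the control library (horizontal) and the Dicer-deficient library (vertical) for 33 pairs of arms matched by name; the line marks equal values and red points are the 4 pairs that differ by more than 1.96 counting standard errors. Of these 4, 3 lie below the line, and the miR-199b pair lies above it at 0 in the Dicer-deficient library.

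Passenger strands as a class were close to the rest: the 34 compared entries named with a star had a median of -0.15 and none past 1 log2 unit, beside a median of 0.01 over the 203 others. Entries of the 5′ arm by RefSeq had a median of 0.01 (103) and of the 3′ arm -0.01 (86). Those with under 50% G and C had 0.04 (97) and the rest -0.01 (95). None of these class medians was further than 0.15 from the median miRNA. Close to the threshold, miR-709 (1.01) and miR-155 (1.02) were just inside and miR-376a (0.80) and miR-376c (0.78) just outside above it. Below it miR-30c (-1.21) was inside and miR-181a-1* (-0.95) outside.

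Of the miRNAs listed in 1 library only, 31 were in control and 20 in Dicer. They were all rare: the highest was miR-142-5p at 25 in control (7 reads) and miR-466k at 26 in Dicer (7 reads), and 24 of the 31 and 14 of the 20 had 3 or 4 reads. A lowest listed value of 3 reads allows no fold to be read from them. None of the 10 most abundant control miRNAs, and no let-7 or miR-181 member, was missing from either fibroblast library.

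The same genotype contrast in the other cell types had larger spreads. In DN3 cells 14 of 183 miRNAs (7.65%) and in Treg cells 25 of 166 (15.1%) differed from their own median by 1 log2 unit or more, with SDs of 0.55 and 0.82. In CD4 cells 67 of 94 (71.3%) did, where the Dicer list began at 645 and the control list at 20. Cell type, Cre driver, depth and file format differ together between these comparisons and cannot be told apart. miR-142-3p, low in the fibroblasts, had 11554 and 12821 in DN3 cells and 21041 and 16404 in Treg cells, ratios of 0.12 and -0.24. miR-30a had 254 and 237 in DN3 cells (-0.13) and 33 and 131 in Treg cells (2.10), beside -0.15 in the fibroblasts. That Treg ratio was the highest of the 5 miR-30 members there, from a control value near the lowest listed value of 10. The Treg family median was 0.72, and miR-30e (4368 and 4424) was at 0.14.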

How the data were processed

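The authors deposited 1 list per fibroblast library, with a score for each mature miRNA: a read count normalised to about 1000000, rounded to whole numbers. Small RNA (19 to 30 nt) was cloned through its 5′ phosphate and 3′ hydroxyl, per the labels; adaptors were removed and reads were mapped to miRNA loci. Not given in the sources used here are the aligner, how reads were counted, the genome build and the miRBase release.

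Ratios used a pseudocount of 0.5, a summed value of at least 50 and the median miRNA as reference. Reads were implied from the spacing of values under 150. In control 100% of 156 such values were whole multiples within 0.6 of a value, and in Dicer 82.2% of 157 (100% within 1), so the implied reads of Dicer are an estimate. Intervals are at 95%. With 1 library per group no test was run. The ratio step was tested on simulated data. Named miRNAs were the 10 most abundant in control, the 10 highest and lowest ratios, the highest listed in 1 library only, the top and extreme members of each list and the 5 largest strand differences each way, and other list members are named where a family is described. The members and lists were chosen with earlier results of these data known. Alternatives were other references, minimums and pseudocounts. Python 3.11.15, numpy 2.4.6, pandas 2.3.3 and scipy 1.17.1 were used.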

Additional observations from a re-analysis of the deposited data

Results flagged for a closer look

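miR-223, the myeloid miRNA, had opposite signs of the Dicer to control ratio in different cell types. In the fibroblasts it had 47 and 14, a ratio of -1.52 to the median miRNA. That rests on 13 and 4 reads, and its counting interval of -3.56 to 0.21 includes the median miRNA, so the sign there is not settled. In DN3 cells it had 28 and 121, a ratio of 2.07, and in Treg cells 24 and 746, a ratio of 5.05. The control values of 28 and 24 lie close to the lowest listed value of 10 in those control libraries, whose depth is unknown. Each value is from 1 library per genotype, and the difference was not tested.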

How the results depend on the processing

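No paired analysis was possible because each group has 1 library, and for the same reason no library could be left out. The count of 10 miRNAs at least 1 log2 unit from the median was 12 with the library total as reference, 9 with the total without miR-22, 15 with no minimum, and 10 with a pseudocount of 1 or with miRNAs of 1 library set to the lowest value of the other. It was 2 with a summed value of at least 200 and 4 with a pseudocount of 10. The same 4 was the count among the named miRNAs at that pseudocount. Of 16 lists with at least 3 compared members, 5 had a median above 0, 3 with the library total. The median strand difference was 0 with no minimum and with 200 per arm. Among single miRNAs and list medians together, 30 values moved on the library total. Among single miRNAs, 11 moved with miR-22 left out of the total. A single miRNA was counted as moved when it left its counting interval. List medians have no such interval, so their part of the 30 does not rest on one. No ratio of 1 log2 unit or more changed sign. Smaller ones did: miR-320 (0.08, interval above the median miRNA) was -0.11 and miR-125a-5p (0.10, likewise) was -0.09 on the library total, each with its whole interval below 0. Depth limits values under 200, where counting error covers most of the spread.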

Other observations

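In several arm pairs the strand that the older names mark as the passenger was the more abundant one. Of 38 pairs with a star name, the star strand exceeded the other in 7 in the control library and 9 in the Dicer library, 6 in both. miR-29a* had 1611 and 1619, beside 113 and 103 for miR-29a. miR-17* had 1084 and 956, beside 160 and 141 for miR-17. miR-27a* had 1051 and 814, beside 160 and 141 for miR-27a, and miR-145* had 367 and 392, beside 69 and 56 for miR-145. Beside this, miR-140* had 767 and 619 and miR-140 465 and 386.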
